A study of Mus musculus with 4 samples.

Results

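The miR-297, miR-466, miR-467 and miR-669 families are groups of near-identical mouse miRNAs, most of them encoded in a single intron of Sfmbt2, and they were followed here in the small RNA libraries of the embryonic forebrain. Members were chosen by name: every miRNA in the count files whose name begins with one of these 4 family numbers, with 1 row kept for each mature name. This gave 36 of the 1059 mature names, from 137 of the 1211 rows of mature miRNA and precursor. The tissue was the rostral tip of the developing telencephalon of E11.5 embryos. Rx-Dicer embryos (Rx-Cre;Dicer F/F, n = 2 libraries) carry a Cre driven by regulatory sequences of Rax (Rx), which deletes floxed Dicer in the Rx lineage, and control embryos (Dicer F/F, n = 2 libraries, called WT in the labels) carry the floxed alleles without Cre. Both groups therefore carry floxed Dicer, Rx-Cre mice were kept on a CD1 background and floxed mice on C57BL/6, and recombination at this age is described by the study as strong in rostral and ventral telencephalon and weak in neocortex. How many embryos made up a library is not given in the sources used here, so p-values measure the spread between these libraries, which may be partly technical.

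Dicer cuts the miRNA hairpin that Drosha has released from a longer transcript, and 1 strand of the resulting duplex is loaded into an Argonaute protein, where bases 2 to 8, the seed, pair with target mRNAs. Sfmbt2 encodes a Polycomb protein and is an imprinted gene, best known for expression from the paternal allele in the placenta. The miRNA cluster in its intron expanded in rodents, is rich in UG repeats, and is known from embryonic stem cells and placenta. Because mature miRNAs are stable, molecules made before Dicer is lost can persist.

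In the GENCODE annotation of mm10, 81 hairpin genes bear these family names, and 71 of them lie inside Sfmbt2 on its own strand. Sfmbt2 runs from 10370510 to 10595253 on the plus strand of chromosome 2, and the 71 hairpins fill 51617 bases, from 10466663 to 10518279, of intron 10 of its 23-exon transcript. That intron runs from 10461473 to 10523944. There were 29 hairpin genes of miR-669, 23 of miR-466, 14 of miR-467 and 5 of miR-297. The 11 genes named Mir467a or Mir467b recurred at a median spacing of 2454.5 bases between starts (range 2413 to 4880). By name, 35 members could be matched to a hairpin gene. All genes matched in this way lay in the Sfmbt2 intron for 30 members, 2 members (miR-466f and miR-466f-5p) had genes both there and on chromosome 13, and 3 lay elsewhere by name. These were miR-466i-5p, on chromosome 13 (17747473 to 17747593, plus strand, within Cdk13 and opposite to its strand), miR-466k, on chromosome 3 (85467377 to 85467498, plus strand, within Gm37240 and opposite to its strand), and miR-669n, also on chromosome 3 (115979902 to 115979955, plus strand, within Slc30a7 and opposite to its strand). miR-466a-5p was the member without a match. Matching by name can miss genes: miR-297a-5p had 4 precursor rows but 3 matched genes. Mir297-1, on chromosome 7, and Mir466, in the Sfmbt2 intron, were matched to no member.

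**Figure D1:**
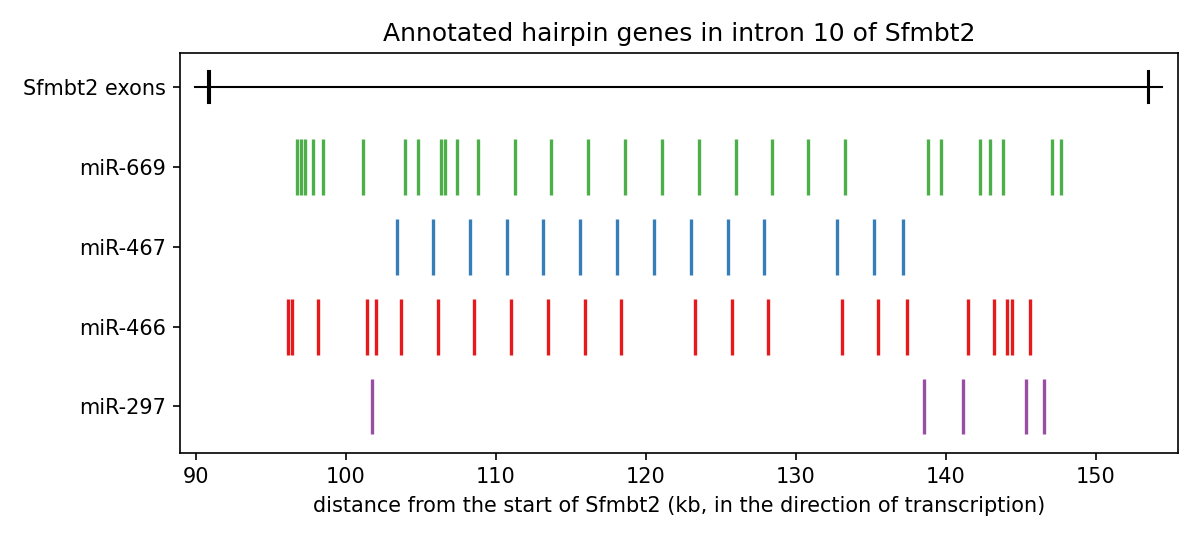
Annotated hairpin genes of the miR-297, miR-466, miR-467 and miR-669 families in intron 10 of Sfmbt2, each as a vertical line at its distance from the start of the gene in kilobases, with the flanking exons as black marks on the top line. Lines of miR-466, miR-467 and miR-669 recur together at near-regular steps through the middle of the intron, and 71 of the 81 annotated genes are shown.

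RefSeq sequences (GRCm38.p6) were at hand for 2 members, miR-466k and miR-669n, and they are shown because they give an example of the UG repeat in these families. Both come from outside the Sfmbt2 intron, and neither was tested. Seed bases 2 to 8 are in capitals.
miR-466k: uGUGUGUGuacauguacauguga
miR-669n: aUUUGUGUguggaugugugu
miR-466k lies on chromosome 3 from 85467396 to 85467418 and miR-669n on chromosome 3 from 115979905 to 115979924, both on the plus strand. U and G alternate over at most 9 consecutive bases in miR-466k and 8 in miR-669n, against a median of 3 over the 1679 mature mouse names in the table, of which 9 reached 8 or more. The letters GUGUGUG, the seed of miR-466k, occurred in 11 of the 1679 mature sequences (0.655%, searched on the mature strand), and no other listed miRNA had either seed. Only these 2 of the 36 members are among the 1679 names. Seeds or repeats shared with the other members could therefore not be seen, and these counts do not show that either is rare. The whole hairpins show how far the repeat extends beyond the mature miRNA, which is in capitals.
Mir466k: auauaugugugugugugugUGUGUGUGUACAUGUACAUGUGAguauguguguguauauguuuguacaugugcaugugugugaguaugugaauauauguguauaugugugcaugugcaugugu
Mir669n: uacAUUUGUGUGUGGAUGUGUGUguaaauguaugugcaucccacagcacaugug
The opposite arm of Mir466i, miR-466i-3p, on chromosome 13 from 17747552 to 17747573 on the plus strand, is rich in CA repeats, with the sequence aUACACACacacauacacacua. It has no row among the members: 32 of the 36 names are 5p arms, 4 carry no arm and 0 are 3p arms. Over all miRNAs, 114 of the 1211 rows were named as 3p arms. Levels and shares below therefore leave out the 3p arms of these families.

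Counts on these families were strongly redundant. Of the 36 names, 19 (52.8%) had more than 1 precursor row, against 46 of the 1023 other names (4.50%), and miR-669a-5p and miR-669p-5p reached 14 rows each. In 15 of these 19 names, the rows of the name held the same 4 counts. The exceptions were miR-466b-5p, miR-466o-5p, miR-466i-5p and miR-466p-5p. Moreover, 6 pairs of names were counted on the same precursors with the same counts in all 4 libraries: miR-467a-5p with miR-467b-5p, miR-669a-5p with miR-669p-5p, miR-466b-5p with miR-466o-5p, miR-466f with miR-466f-5p, miR-466m-5p with miR-669m-5p, and miR-466d-5p with miR-466n-5p. A pair of this kind is given here as a single measurement, because the deposited counts cannot separate its names. The 34 members with a count thus amounted to 28 distinct sets of counts.

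Summed over mature names, mutant libraries 1 and 2 held 651031 and 516517 counts, whereas control libraries 1 and 2 held 1299067 and 1133553. CPM stands for counts in 1000000 counts of a library. The limit that a count of 0 allows, taken as 3 counts, was 2.31 to 5.81 CPM, and such limits and the intervals on single libraries cover counting error only. Levels below are scaled CPM, that is CPM after the TMM scaling of edgeR, which aligns libraries by the bulk of their miRNAs (factors 1.17, 1.14, 0.926 and 0.814 in the same order). Dicer mRNA is not measured in these libraries, so the deletion was not checked in them. Among the marker miRNAs, the neural list (3 of 5 in the files, led by miR-9-5p) held 284430 and 297587 CPM before scaling in mutants, against 318967 and 428560 in controls. Red-cell miRNAs (3 of 4 in the files) held 8875 and 9655 CPM in mutants and 5314 and 5177 in controls, and mesenchymal miRNAs (4 of 6) held 13053 and 12087 against 3897 and 8525. The list for embryonic stem cells and placenta (8 of 8 in the files, with miR-302b-5p at 0) held 111 and 98.7 CPM in mutants and 39.3 and 59.1 in controls. Eye miRNAs (4 of 4) ranged from 1651 to 16061 CPM in the mutant libraries and from 3192 to 5732 in the controls. Endothelial miRNAs (1 of 2) held 277 to 504 CPM in mutants and 235 to 328 in controls, and epithelial miRNAs (4 of 4, miR-200c-5p at 0) held 275 to 918 and 186 to 348.

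The members were present at low to moderate levels. A count was found for 34 of 36 names, 27 names had a count in all 4 libraries, and miR-466l-5p and miR-669g had 0 counts throughout. The count minimum of 10 in at least 2 libraries was reached by 14 names, or 12 distinct sets of counts: 7 names of miR-669, 5 of miR-467, 2 of miR-466 and 0 of miR-297. The leading member, miR-669c-5p, ranked between 102 and 121 among the 1059 names in the 4 libraries. All genes matched by name to 13 of these 14 names lie in the Sfmbt2 intron, and the gene named for the other, miR-466i-5p, is on chromosome 13. The 12 distinct sets spanned a 22.3-fold range in mean scaled CPM over the 4 libraries.

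miR-669c-5p, from a single gene on chromosome 2 (10509296 to 10509404), was the most abundant member. It had 241 and 205 counts in the Rx-Dicer libraries and 463 and 262 in the control libraries, which is 317 and 350 scaled CPM in mutants against 385 and 284 in controls. The mutant libraries thus lay between the control libraries. miR-467a-5p and miR-467b-5p, counted together on 11 precursors, had 273 and 156 counts in mutants and 199 and 286 in controls. This is 359 and 266 scaled CPM in mutants against 165 and 310 in controls, and the lowest value was that of control library 1. miR-669a-5p and miR-669p-5p, together on 14 precursors, had 134 and 71.6 scaled CPM in mutants and 94.7 and 109 in controls, so that both the highest and the lowest library were mutant. These 3 sets of counts made up 61.9% to 64.0% of the scaled CPM on all members, in each library.

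miR-467c-5p, whose gene lies on chromosome 2 from 10473931 to 10474027, varied least of the 12 sets. Its scaled CPM were 96.0 and 83.6 in mutants and 80.6 and 94.3 in controls, a ratio of highest to lowest of 1.19. miR-466i-5p, whose named gene lies outside Sfmbt2, had 68.4 and 95.5 in mutants and 110 and 67.2 in controls. These values are from the higher of its 2 precursor rows. The lower row had 40 and 36 counts in mutants and 92 and 47 in controls. It is on the same precursor as the only row of miR-466k, whose named gene is on chromosome 3. Precursors were not placed on the genome here, so which row belongs to the chromosome 13 hairpin was not resolved directly. miR-467e-5p had 55.2 and 39.2 in mutants and 37.4 and 43.4 in controls. In each of these 3, the groups overlapped.

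Further down the order, miR-669l-5p had 32.4 to 47.7 scaled CPM over the 4 libraries, with the lowest value in a mutant and the highest in a control library. miR-669o-5p had 39.4 and 22.2 in mutants and 36.6 and 37.9 in controls. miR-467d-5p, the member with the lowest total among those tested, had 11 and 9 counts in mutants and 10 and 20 in controls. Just outside the minimum, miR-466c-5p had 14 and 5 counts in mutants and 9 and 4 in controls.

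For 3 of the 14 names, both mutant libraries lay above both control libraries, and all 3 were close to the count minimum. miR-669b-5p had 17 and 13 counts (22.3 and 22.2 scaled CPM) in mutants and 21 and 14 counts (17.5 and 15.2 scaled CPM) in controls. miR-669f-5p had 18.4 and 20.5 scaled CPM in mutants and 14.1 and 16.3 in controls, and miR-466h-5p had 18.4 and 18.8 against 14.1 and 15.2. Over all 274 tested miRNAs, 17.9% lay higher in both mutant libraries in this way and 24.5% lay lower, and 0 of the 14 members lay lower.

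The order of levels was resolved only in part. The range of miR-467a-5p and miR-467b-5p did not overlap with that of the next set, miR-669a-5p and miR-669p-5p, and the range of miR-466i-5p did not overlap with that of miR-467e-5p. All other neighbours in the order overlapped. miR-669c-5p and miR-467a-5p changed places between libraries: the ratio of their counts was 0.883 (exact 95% interval 0.739 to 1.05) and 1.31 (1.06 to 1.63) in mutants, against 2.33 (1.97 to 2.76) and 0.916 (0.772 to 1.09) in controls. Although both hairpin sets lie in the same intron, control library 1 thus had a higher ratio than the 3 other libraries, beyond counting error. The mutant libraries also differed from each other beyond counting error, since their intervals (0.739 to 1.05 and 1.06 to 1.63) did not overlap. Without control library 1, the log2 fold change of miR-669c-5p was 0.27 and that of miR-467a-5p was 0.05, and without control library 2 they were −0.21 and 0.92, and none of these values passed the threshold.

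**Figure D2:**
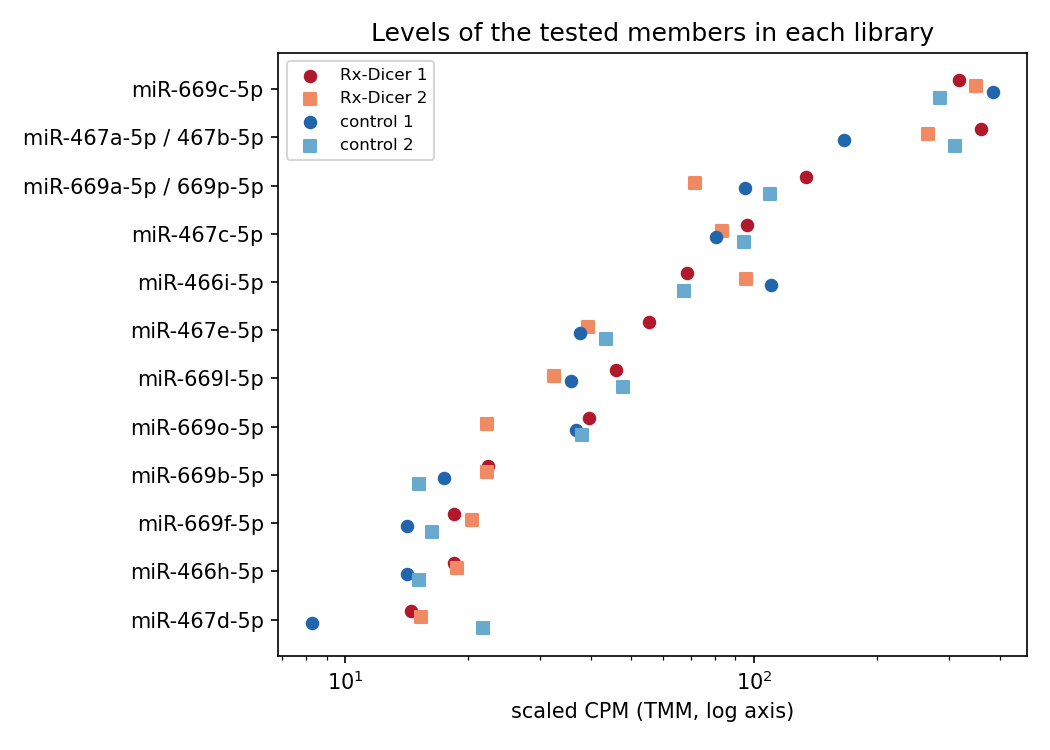
Scaled CPM (log axis) of the 12 distinct sets of counts tested, 1 point for each library, with Rx-Dicer libraries in red and orange and control libraries in blue. Red and blue points interleave in 9 of the rows, and in miR-669b-5p, miR-669f-5p and miR-466h-5p both mutant points lie to the right of both control points.

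Summed over the members, the share of counts depended on how counts were scaled. With 1 row for each name, the members held 0.208% (95% Wilson interval 0.197 to 0.219) and 0.164% (0.153 to 0.175) of all miRNA counts in Rx-Dicer libraries 1 and 2, and 0.122% (0.116 to 0.128) and 0.125% (0.118 to 0.131) in control libraries 1 and 2. With identical sets of counts taken once, the shares were 0.149% and 0.125% in mutants and 0.0970% and 0.0900% in controls. A share is relative to a total in which miR-9-5p alone took 28.2% and 29.4% in mutants and 31.5% and 42.6% in controls. After TMM scaling, the same sums were 1266 and 1090 scaled CPM in mutants and 1041 and 1100 in controls, so that the groups overlapped, with means of 1178 ± 125 and 1071 ± 41.8 (SD, n = 2 libraries each). As sums over chosen members, these values were not tested. The red-cell, mesenchymal and stem cell and placental lists were likewise higher in both mutant libraries before scaling, and their part in the shares was not tested. With total counts only, the median log2 fold change over all 274 tested miRNAs was already 0.44. After scaling, miR-451a, miR-486a-5p and miR-199a-5p still lay higher in both mutants. The groups overlapped for miR-144-5p, miR-143-5p, miR-145a-5p, miR-214-5p, miR-292a-5p and miR-302a-5p.

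By family, the scaled sums were 586 and 527 in mutants against 593 and 516 in controls for miR-669, 524 and 404 against 292 and 469 for miR-467, and 145 and 150 against 152 and 110 for miR-466. In each of these 3 families, the groups overlapped. miR-297 was barely detected, with 8 and 5 counts in mutants and 6 and 5 in controls over its 3 members, or 10.5 and 8.53 scaled CPM against 4.99 and 5.42. The leading member of that family, miR-297b-5p, had 4 and 4 counts in mutants and 4 and 2 in controls.

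**Figure D3:**
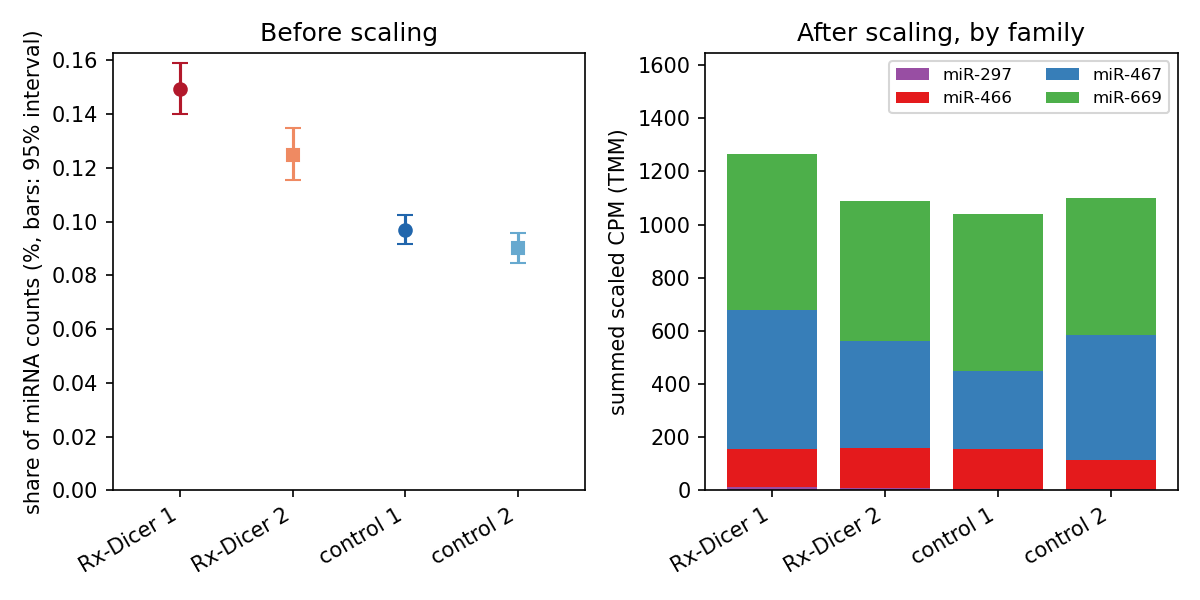
Left, share of all miRNA counts on the members in each library before scaling, in percent, with 95% Wilson intervals for counting error. Right, stacked bars of summed scaled CPM by family after TMM scaling, and identical sets of counts enter once in both panels. The mutant libraries lie above the controls on the left (0.149% and 0.125% against 0.0970% and 0.0900%), while on the right the bars reach 1266 and 1090 against 1041 and 1100.

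The question for the comparison of genotypes was whether loss of Dicer in the Rx lineage changed these miRNAs relative to the others. Over all 274 tested miRNAs, 2.55% were called lower in Rx-Dicer mutants and 0% higher, with the threshold at 0.05 for p-values of edgeR's quasi-likelihood test after Benjamini-Hochberg adjustment. None of the 14 members was called in either direction (0 lower, 0 higher). Without adjustment, 0 of the 14 members had p under 0.05 in edgeR, against 8.39% lower and 1.09% higher over all tested miRNAs, and DESeq2's Wald test called 0 of the 7 members to which it gave an adjusted p. The other 7, which had the lowest counts, received none, and 0 of the 14 had an unadjusted p under 0.05 in it. In this tissue, fewer cells of a type and less RNA per cell cannot be told apart, and relative counts do not show a loss that affects every miRNA alike. For scale, miR-9-5p, the most abundant forebrain miRNA, had a log2 fold change of −0.79 (95% interval −1.43 to −0.15), with an edgeR adjusted p of 0.344.

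miR-669c-5p gave the narrowest estimate. Its means were 333 ± 23.2 scaled CPM (SD, n = 2 libraries) in mutants and 334 ± 71.2 (SD, n = 2 libraries) in controls. The fitted log2 fold change was −0.01 with a standard error of 0.27 (edgeR, adjusted p = 0.990). The 95% interval ran from −0.63 to 0.62, so that mutant levels between 0.646 and 1.53 times those of controls were all compatible with these counts. For miR-467a-5p and miR-467b-5p, means were 312 ± 65.7 (SD, n = 2) in mutants and 238 ± 102 (SD, n = 2) in controls. Here the log2 fold change was 0.40 with a standard error of 0.36 (edgeR, adjusted p = 0.722). This was the smallest adjusted p of any member. For miR-669a-5p and miR-669p-5p, the log2 fold change was 0.02, with a 95% interval from −0.87 to 0.91.

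Among the other members, log2 fold changes ran from −0.26 for miR-669o-5p (interval −1.23 to 0.72) to 0.44 for miR-669b-5p (interval −0.53 to 1.41). The value was 0.04 for miR-467c-5p, −0.12 for miR-466i-5p, 0.23 for miR-467e-5p and −0.08 for miR-669l-5p. It was 0.35 for miR-669f-5p, 0.34 for miR-466h-5p and 0.02 for miR-467d-5p, whose interval was the widest (−1.33 to 1.37). No member's interval excluded 0. The estimates were positive for 10 of 14 names, or 8 of 12 distinct sets of counts, against 54.4% of all tested miRNAs. Their median was 0.03, and that of all 274 tested miRNAs was 0.04. Both medians moved together with the scaling: with total counts only they were 0.45 and 0.44, and all 14 members were then positive.

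**Figure D4:**
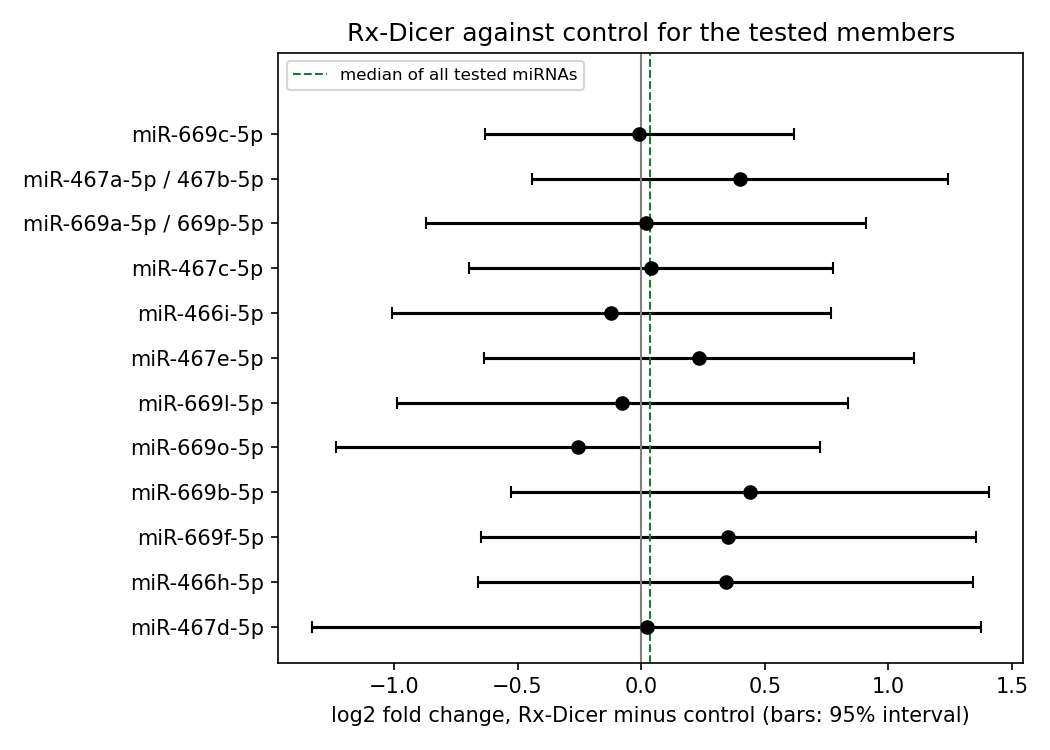
Log2 fold change of Rx-Dicer against control for the 12 distinct sets of counts tested, as points with 95% intervals from edgeR's quasi-likelihood fit, beside a dashed line at the median of all tested miRNAs. Each interval spans 0, and the narrowest, that of miR-669c-5p, runs from −0.63 to 0.62.

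Interval widths came from a spread estimated partly over all tested miRNAs and from counting error, not from each member's own libraries alone. For miR-466h-5p, SDs were 0.251 scaled CPM in mutants and 0.743 in controls, yet the log2 standard error was 0.43. The median absolute log2 difference between the mutant libraries was 0.43 over the 14 members and 0.29 over all tested miRNAs. Between the control libraries it was 0.22 over the members and 0.42 over all. Of the 14 members, 9 were higher in mutant library 1 than in mutant library 2, and 3 were higher in control library 1 than in control library 2. Over all 274 tested miRNAs, the same held for 129 and 137. These figures count names, so miR-467a-5p with miR-467b-5p and miR-669a-5p with miR-669p-5p enter under both names. Both pairs were higher in mutant library 1 (359 against 266 and 134 against 71.6 scaled CPM). The spread over distinct sets of counts was not computed, so a wider spread of the members between mutant libraries is not shown.

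Below the count minimum, 20 names had a count, with at most 14 counts in any library. Summed over their 16 distinct sets, they had 59 and 31 counts in mutants and 51 and 35 in controls, which is 77.6 and 52.9 scaled CPM in mutants and 42.4 and 37.9 in controls. Both mutant libraries thus lay above both control libraries in this sum, for which no value over all miRNAs was computed. The control libraries were deeper, so a minimum of 10 counts is a lower CPM in them. Names high in controls can therefore leave this sum more easily, and whether this shaped the sum was not tested. miR-466c-5p alone gave 14 of the 59 counts in mutant library 1. With a minimum of 3 counts in 2 libraries, 10 of the 20 names entered the fit, and a name can pass this minimum through 1 genotype alone. All 10, or 8 distinct sets of counts, had positive log2 fold changes, against 53.1% of the 96 miRNAs that entered in this way. The values ran from 0.22 for miR-297a-5p to 1.21 for miR-466f and miR-466f-5p, and none passed the threshold (edgeR, adjusted p from 0.627 to 0.979). In that fit the median over all 370 tested miRNAs was −0.04. miR-466k, whose sequence is shown above, had 7 and 1 counts in mutants and 4 in each control library. miR-669n had 1 count, in control library 1.

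The names below the minimum were spread over miR-297, miR-466 and miR-669. miR-466b-5p and miR-466o-5p had 8 and 5 counts in mutants and 8 and 6 in controls, and their 10 precursor rows held 3 different sets of counts. miR-669d-5p had 7 and 4 counts in mutants and 7 and 3 in controls. miR-466p-5p had 7 and 3 against 4 and 4, and miR-466f had 5 and 3 against 4 and 1. Each of these had more scaled CPM in both mutants than in both controls, at 1 to 8 counts in a library. With miR-466c-5p and miR-297b-5p, this held for 6 of the 8 distinct sets of counts that the lower minimum added, or 8 of 10 names, against 25% of the 96 miRNAs it added in all. Of the 10 names, 0 lay lower in both mutants, against 17.7% of the 96. miR-297a-5p had 3 and 1 counts in mutants and 2 and 3 in controls. miR-466e-5p had 1 to 3 counts in each library, and miR-466m-5p with miR-669m-5p had 1 count in 3 libraries and 4 in control library 2. The other names, among them miR-297c-5p, miR-466a-5p, miR-466d-5p, miR-669h-5p and miR-669k-5p, had at most 2 counts in any library, which is under the limit of 3 counts used here.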

How the data were processed

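Small RNA was sequenced in 4 libraries (75-base single-end reads). According to the methods of the study, reads were counted with miRDeep2 on mm10 and miRBase version 22, and the deposited values are raw counts by the authors per pair of mature miRNA and precursor. The version and mismatch settings of miRDeep2 are not given in the sources used here, and a read that fits several precursors can be counted on each. Where a name had more than 1 row, only its highest row by total counts was used. The 274 names that reached 10 counts in 2 or more libraries were tested with edgeR 4.0.16 (quasi-likelihood, TMM, genotype as the only factor, Benjamini-Hochberg adjustment, threshold 0.05) in R 4.3.3, and intervals used its standard errors. DESeq2 1.42.0 was an alternative. Libraries of a genotype were not duplicates: only 3 (mutant) and 6 (control) of 274 counts were equal.

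Members and lists were chosen with earlier results of these data known. Named members were the 12 with the highest mean scaled CPM, the leading member of each family and arm, the extremes of fold change, any member at an unadjusted p under 0.05, and those next to the count minimum. Hairpins were placed by name in GENCODE M21 and sequences came from RefSeq. Non-members that share a seed with a tested member, and other miRNAs annotated inside Sfmbt2, were to be named, but this was not done here.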

Additional observations from a re-analysis of the deposited data

How the results depend on the processing

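In all 13 alternatives, 0 members were called lower and 0 higher, although DESeq2's Wald test gave an adjusted p to only 7 of the 14 names, and the smallest adjusted p of any member was 0.219 (total counts only, edgeR), where miR-467a-5p and miR-467b-5p, a single set of counts, had an unadjusted p under 0.05, and were higher. No member passed it in the other alternatives. Across the tested members, the median log2 fold change (0.03) was 0.45 with total counts only, 0.19 with no count minimum (34 members), 0.29 with at least 3 counts (24 members) and 0.23 with the sum over precursor rows (22 members), where further members entered, and 0.051 to 0.30 with each library left out (0.30 without Rx-Dicer library 2, 0.25 without control library 2). Over all tested miRNAs the median was 0.44 with total counts only, −0.14 with no minimum, −0.04 with at least 3 counts and 0.020 with the sum over precursor rows. It was −0.017 to 0.043 with each library left out (0.025 without Rx-Dicer library 2, 0.043 without control library 2). With the replicate number as a block (replicate block), 0 members were called and their median was 0.08. Same-numbered libraries did not deviate together (correlation 0.0855 over 274 miRNAs). With 2 libraries in each genotype, this cannot show whether libraries were paired. The paper compared mutants with control littermates, and which libraries share a litter is not given in the sources used here. The difference in the members' share of counts, 0.0627 percentage points, was 0.313 with the sum over precursor rows, where reads enter once for each precursor, and 0.0408 to 0.0845 with each library left out.

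Of 108 fold changes of single members under alternatives with all libraries, 89 kept their direction and 19 reversed. None passed the threshold, which the 7 values without an adjusted p in DESeq2's Wald test could not. miR-669c-5p was at 0.027 with DESeq2's size factors, 0.38 with total counts only, 0.091 with upper-quartile scaling, 0.027 with DESeq2's Wald test, 0.0015 with identical rows once and 0.0069 with the block. With total counts only, miR-466i-5p was at 0.26, miR-669l-5p at 0.34 (0.025 with upper-quartile scaling) and miR-669o-5p at 0.15. With no count minimum, miR-467c-5p was at −0.12, miR-467d-5p at −0.14 and miR-669a-5p at −0.15, and with at least 3 counts at −0.047, −0.061 and −0.068. With the sum over precursor rows, miR-467d-5p was at −5.94e-05 and miR-669a-5p at −0.012, and the latter was at −0.034 with the block. The cause was not tested, apart from the shift of all miRNAs with the scaling.

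With each library left out, which leaves a group with a single library assumed to vary like the others, 14 of 48 values reversed. The ranges were −0.43 to 0.32 for miR-466i-5p, −0.064 to 0.16 for miR-467c-5p, −0.50 to 0.83 for miR-467d-5p, −0.039 to 0.45 for miR-467e-5p, −0.51 to 0.39 for miR-669a-5p, −0.21 to 0.27 for miR-669c-5p, −0.36 to 0.15 for miR-669l-5p and −0.74 to 0.083 for miR-669o-5p. Depth limits the weak members: 3 counts were worth 4.61 to 5.81 CPM in mutants and 2.31 to 2.65 CPM in controls.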

Other observations

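miR-574-5p, a miRNA with a UG repeat that belongs to none of these families, lies on chromosome 5 from 64970328 to 64970350 (RefSeq, GRCm38.p6, plus strand) and was chosen after its values were seen. Its sequence, with seed bases 2 to 8 in capitals, is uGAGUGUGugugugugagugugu, and U and G alternate over 13 consecutive bases. It had 216 and 168 counts in Rx-Dicer mutants and 280 and 236 in controls, which is 284 and 286 scaled CPM against 233 and 256. Both mutant libraries thus lay above both control libraries, as they did for 17.9% of all 274 tested miRNAs. Levels of the other non-members among the 9 names with a run of 8 or more are not given here. The log2 fold change of miR-574-5p was 0.22 (95% interval −0.37 to 0.81, edgeR adjusted p = 0.804).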
